A study of Mus musculus with 4 samples.

Results

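The sites described here are positions called as N6-methyladenosine (m6A) in mouse predicted genes, those whose name is Gm followed by a number. A site is a position on 1 strand that the authors' tables list under such a gene, outside the mitochondrial genome, in at least 2 of the 4 libraries. There were 4201 such sites in 1615 genes, 5.24% of the 80204 sites of all kinds that reached 2 libraries. Across the single libraries 45743 positions in Gm genes were listed at least once, and 41542 of these appeared in 1 library only. In all 1076788 positions were listed at least once.

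RNA was taken from day 6 mouse retinal organoids of an Rx:GFP line that carries the FKBP12F36V-HA degron at the C-terminus of endogenous Mettl3. Rx:GFP marks cells of the early eye field, and FKBP12F36V is a tag that dTAG13 links to a ubiquitin ligase so that the tagged protein is degraded. The 2 untreated libraries (0 h) and the 2 libraries made after 8 h with 125 nM dTAG13 share this line, the culture medium with AGN and the day of collection. The genotype entries differ between libraries and run from Mettl3 to Mettl6, while the series title and design name METTL3. The degron was taken to be on METTL3 in all 4, the loss of METTL3 protein cannot be read from these files, and an untagged line treated with dTAG13 was not analysed here. The labels do not say whether the libraries came from separate cultures or whether the line is a single clone, so the p-values measure the spread between these libraries, which may be technical.

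METTL3 is the catalytic subunit of the nuclear methyltransferase that places most m6A in messenger RNA. In GLORI, unmethylated adenosine is chemically deaminated and read as G, whereas m6A is still read as A. The level of a site is therefore the number of A reads as a percentage of A plus G reads. Gm names are placeholders given to predicted mouse genes without a studied function. Many are processed pseudogenes, copies of a messenger RNA inserted back into the genome, whose reads can be hard to tell from those of the parent gene. Values in Gm pseudogenes are therefore uncertain, because the way shared reads were assigned is not given in the sources used here.

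By RefSeq gene type (assembly GRCm38.p6, matched by symbol for 1611 of the 1615 genes), 1371 were pseudogenes and 50 were transcribed pseudogenes, together 88.0%. A further 113 were long noncoding RNA (lncRNA) genes and 62 were protein coding. The others were 8 small nuclear RNAs (snRNAs), 4 miscellaneous RNAs, 2 small nucleolar RNAs and 1 guide RNA. Pseudogenes held 3785 of the sites, lncRNA genes 245, protein-coding genes 135 and the small or miscellaneous RNAs 22. Most genes had few sites: 783 had 1 site, 53 had at least 10, and the highest number was 30, in the lncRNA gene Gm20716.

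Only called sites are in the tables, and none had a level under 10%, under 15 reads in all or under 5 reads of A. A position missing from a library can be unmethylated, below these limits or not covered, and the tables do not separate these cases. Summed over every listed site, the untreated libraries had 52195855 and 54905380 A and G reads, and the dTAG13 ones 30102136 and 45966738. These sums also fall when fewer sites are listed, so they do not measure sequencing depth alone. Median reads per listed site were 78 and 80 untreated against 75 and 91 with dTAG13. The first dTAG13 library was the lowest by either value. All 5 eye field and retinal progenitor markers (Rax, Pax6, Six3, Six6 and Lhx2) and all 4 pluripotency markers were listed in every library. Of the markers of other germ layers, 0 of 3 mesoderm genes were listed in any library, and 1 of 3 endoderm genes and 1 of 3 blood and vessel genes in all 4. A gene is listed only if it has a called site, so an unlisted marker can still be expressed. Summed marker coverage, not scaled to depth, was 1917 and 2293 untreated against 1409 and 1985 with dTAG13 for the eye field list. For the pluripotency list it was 867 and 883 against 615 and 799. Single markers differed. Pax6, Six3, Nanog and Dppa5a were lower with dTAG13 without overlap. Rax had 213 and 274 untreated against 227 and 298 with dTAG13, which overlap. Zfp42 had 59.0 and 75.1 against 97.7 and 64.5, which overlap, as did the values of Six6, Lhx2 and Pou5f1. The part of any shift in cell makeup in the results was not tested, and in bulk RNA fewer cells of a type cannot be told apart from less RNA per cell.

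Fewer sites in Gm genes were listed after dTAG13. The untreated libraries listed 13985 and 14158 sites, and the dTAG13 libraries 10415 and 12239. Both dTAG13 libraries were below both untreated ones, and the means were 14072 ± 122 and 11327 ± 1290 (SD, n = 2 each), a ratio of 0.805. The exact permutation test over 2 against 2 libraries gave a two-sided p of 0.333, the smallest it can give, so no single value of this kind could pass 0.05. The number of Gm genes with a listed site was 3120 and 3138 untreated against 2559 and 3012 with dTAG13, and sites per listed gene were 4.48 and 4.51 against 4.07 and 4.06.

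The same ratio was 0.708 for other named genes, 0.890 for named pseudogenes and 0.668 for sites outside genes. It was 0.675 for Rik genes, whose symbol ends in Rik and which are not counted among the other named genes. Gm sites accordingly made up 5.36% and 5.20% of all sites in genes in the untreated libraries and 5.83% and 6.06% with dTAG13, without overlap (exact permutation p = 0.333, two-sided). Within the Gm class the ratio was 0.826 in pseudogenes, 0.677 in lncRNA genes and 0.705 in protein-coding genes, and 1.05 in the small RNAs. By level the ratio of listed Gm sites was 0.797 at 10 to 40%, 0.830 at 40 to 90% and 0.814 at 90 to 100%, against 0.672, 0.709 and 0.853 in other named genes. In the highest band the Gm share of sites in genes was 3.86% and 4.03% untreated and 3.63% and 3.90% with dTAG13, which overlap. The typical level of a listed Gm site hardly differed, with medians of 24.1% and 23.4% untreated and 23.5% and 23.8% with dTAG13, which overlap (exact permutation p = 1, two-sided). The median conversion of the genes behind these sites, the share of A read as G, was 95.9% and 96.2% against 96.4% and 96.4%, higher with dTAG13, and its part in the counts was not tested.

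Repeat listing was sparse: 3541 of the 4201 sites were found in 2 libraries, 467 in 3 and 193 in all 4. The largest single pattern was the 889 sites listed in both untreated libraries and neither dTAG13 library. The mirror pattern, both dTAG13 libraries and neither untreated, held 472 sites. The 4 patterns with 1 untreated and 1 dTAG13 library held 499 to 581 sites each.

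**Figure D1:**
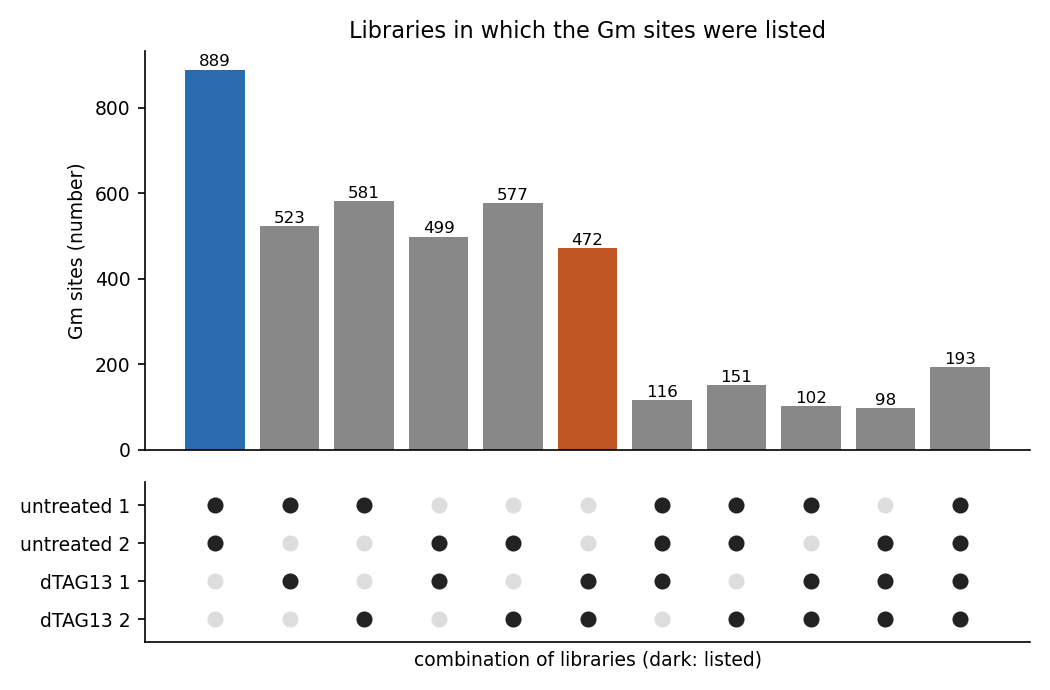
Number of Gm sites (vertical axis) for each combination of libraries in which they were listed; dark dots mark the libraries of a combination. The untreated pair alone (blue) holds 889 sites and the dTAG13 pair alone (orange) 472, with 193 sites in all 4 libraries.

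Counted over pairs of libraries whatever the other libraries held, the untreated pair shared 1349 Gm sites. The 4 mixed pairs shared 906 to 1027, and the dTAG13 pair shared 865. The dTAG13 pair thus had 0.641 times the sites of the untreated pair (95% counting interval 0.589 to 0.698, which covers counting error only, with 1 pair of libraries a condition). Unlike the ratio of listed sites in single libraries, this ratio was lower for sites of higher level. At a pair mean of 10 to 40% the counts were 995 and 718, a ratio of 0.722. At 40 to 90% they were 278 and 120, a ratio of 0.432, and at 90 to 100% they were 76 and 27, a ratio of 0.355 (0.230 to 0.549). Every mixed pair lay below the untreated pair in each of the 3 bands, and in the highest band the mixed pairs shared 15 to 30 sites, around the count of the dTAG13 pair.

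In other named genes the same ratios were 0.429 over all levels and 0.538, 0.285 and 0.104 in the 3 bands. Rik genes had 0.402 over all levels and 0.714, 0.221 and 0.023 in the bands. Named pseudogenes had 0.791 over all levels and 0.898, 0.444 and 0.375 in the bands. Sites outside genes had 0.689 and 0.757, 0.570 and 0.579, so both of these classes were at or above the Gm values. The counting intervals of Gm and other named genes did not overlap in any of the bands; no test over libraries was possible with 1 pair a condition. Every main type of Gm gene had fewer strong sites in the dTAG13 pair. The untreated and dTAG13 pairs shared 46 and 21 sites of 90% or more in pseudogenes, 12 and 1 in lncRNA genes, and 16 and 1 in protein-coding genes. Of sites at 40 to 90% they shared 235 and 101 in pseudogenes, 21 and 10 in lncRNA genes, and 20 and 8 in protein-coding genes. At 90% or more the ratios of these types were 0.457, 0.083 and 0.063, so only pseudogenes were above the 0.104 of other named genes. At 40 to 90% they were 0.430, 0.476 and 0.400, all above 0.285.

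**Figure D2:**
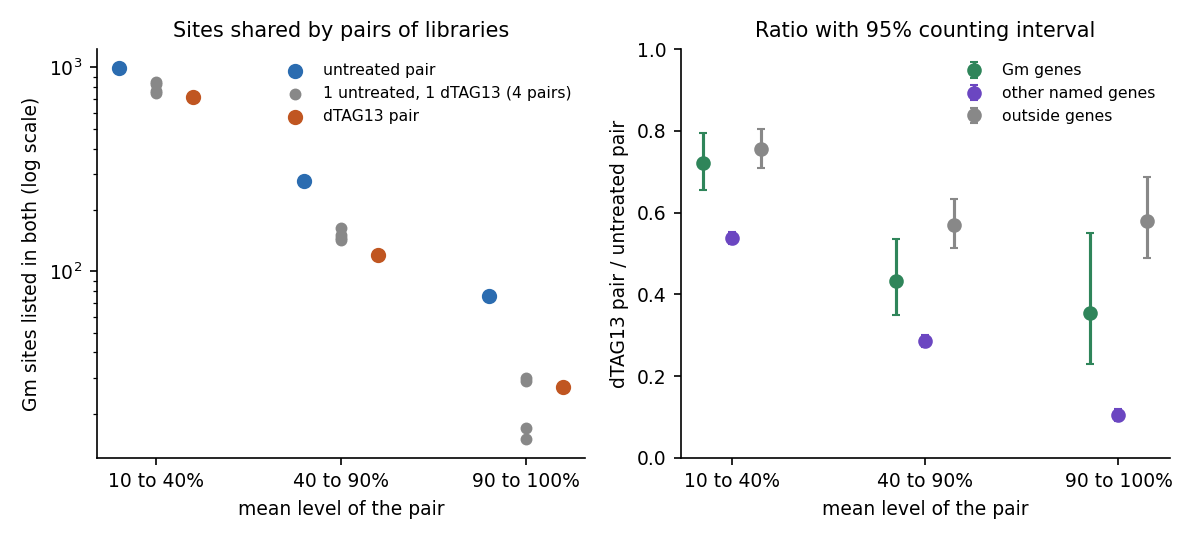
Left, Gm sites listed in both libraries of a pair (log axis) by the mean level of the pair, for the untreated pair, the 4 mixed pairs and the dTAG13 pair. Right, the count in the dTAG13 pair over that in the untreated pair, with 95% counting intervals; at 90 to 100% the ratio is 0.355 for Gm genes and 0.104 for other named genes.

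A second measure, which still depends on the depth of the library searched, starts from 1 untreated library and asks how many of its Gm sites with at least 50 reads are listed again. Of 9432 such sites in the first untreated library, 11.4% were found in the other untreated library, and 8.32% and 9.04% in the dTAG13 libraries. Of 9498 sites in the second, 11.5% were found in the other untreated library, and 8.42% and 8.79% in the dTAG13 libraries. Recovery with dTAG13 was thus 0.753 times that between untreated libraries on average, and it was below it in each of the 4 comparisons. The ratio was 0.829 for sites of 10 to 40%, 0.418 for 40 to 90% and 0.441 for 90 to 100%. Over all levels it was 0.545 in other named genes, 0.487 in Rik genes, 0.769 in named pseudogenes and 0.726 outside genes. Within Gm genes it was 0.765 in pseudogenes, 0.793 in lncRNA genes and 0.410 in protein-coding genes.

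The 10 sites named here had the highest untreated mean with at least 50 reads in both untreated libraries, 1 per gene, so their high untreated level is the selection itself. Of these, 9 were listed in neither dTAG13 library and 1 in a single dTAG13 library. The sites of Gm10130 (protein coding, chr2:150167317, plus strand), Gm6184 (pseudogene, chrX:100562827, plus) and Gm33989 (protein coding, chr7:39216851, plus) were at 100% in both untreated libraries, with 198 and 203, 146 and 90, and 51 and 85 reads. The lncRNA gene Gm20605 (chr5:137638749, plus) had 100% and 99.5%. The pseudogene Gm7324 (chr14:43951759, plus) had 99.8% and 99.1% with 403 and 453 reads untreated, was 21.6% with 462 reads in the first dTAG13 library and was not listed in the second. The pseudogenes Gm8342, Gm6741, Gm3436 and Gm12611 and the protein-coding gene Gm3411 made up the 10.

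Most of their genes still had a coverage value. Gm10130 had a gene coverage of 133 and 72.3 untreated and 51.1 and 77.0 with dTAG13, and Gm6741 had 158 and 125 against 212 and 361. Of the 10 genes, Gm8342 alone lacked a coverage value in a dTAG13 library. More widely, 76 Gm sites had an untreated mean of 90% or more, and 52 of them were listed in neither dTAG13 library. Of these 52, 34 lay in a gene with a coverage value in both dTAG13 libraries, where the median ratio of gene coverage, dTAG13 over untreated, was 1.01. The 52 sites had fewer untreated reads than the 24 others, with medians of 47.8 and 108, and the part of read depth in the loss of listing was not tested. Coverage at the site itself is not in the tables when the site is not listed.

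The remaining 24 of the 76 were listed again with dTAG13, 31.6% (95% Wilson interval 22.2 to 42.7), and where listed most were still high. Their median was 94.5% in the untreated pair and 93.9% where listed with dTAG13. In other named genes 357 of 1877 such sites were listed again, 19.0%, and their median went from 98.5% to 39.9%. Outside genes 177 of 361 were listed again, 49.0%, with medians of 95.9% and 94.9%, and in named pseudogenes 4 of 8, with medians of 92.8% and 88.6%. Of all 1349 sites of the untreated pair in Gm genes, 34.1% were listed in at least 1 dTAG13 library, against 19.1% of 23204 in other named genes. The share was 31.3% of 268 in named pseudogenes and 53.5% of 3558 outside genes. In the mirror direction 45.4% of the 865 Gm sites of the dTAG13 pair were listed in at least 1 untreated library. That share was 29.8% in other named genes, 38.2% in named pseudogenes and 72.0% outside genes.

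Of the 27 Gm sites at 90% or more in the dTAG13 pair, 13 were listed in both untreated libraries, 6 in 1 and 8 in neither. The 19 listed again, 70.4%, had a median of 95.6% with dTAG13 and 94.7% untreated. The share listed again was 15.9% in other named genes and 76.1% outside genes. Of the 10 Gm sites with the highest dTAG13 mean, chosen in the same way, 8 were listed in both untreated libraries, 1 in a single untreated library and 1 in neither. The snRNA genes Gm22973 (chr12:59087150, plus) and Gm25360 (chr1:72265428, plus) were at 100% in both dTAG13 libraries, and at 99.8% and 92.5%, and 92.6% and 100%, in the untreated ones. snRNAs are small RNAs of the splicing machinery and of related complexes. The pseudogene Gm6266 (chr6:146684381, plus) had 95.2% and 97.7% untreated and 98.0% and 97.1% with dTAG13, which overlap. The pseudogenes Gm5430, Gm9619, Gm10313, Gm5921, Gm13679 and Gm16514 were also among the 10. Gm6789 was the site listed only with dTAG13, at 95.1% and 95.5% with 82 and 112 reads.

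Levels could be compared directly at the 193 Gm sites listed in all 4 libraries, and 179 of these, in 166 genes, had at least 20 reads in each. These 179 were 153 sites in pseudogenes, 20 in lncRNA genes, 3 in protein-coding genes and 3 in small or miscellaneous RNAs. The comparison covers only sites that stayed at 10% or more in every library, and a site that dropped below that limit cannot enter it. The quasi-binomial model, fitted to all 2321 sites that met these limits and adjusted over all of them by Benjamini-Hochberg, called 2 Gm sites lower with dTAG13 and 0 higher at an adjusted p under 0.05. Over all sites tested 2.28% were called, 2.20% lower and 0.0862% higher. At an unadjusted p under 0.05 there were 11 Gm sites, 6 lower and 5 higher, where the share over all sites was 9.35%.

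The first site called lay in Gm10076, a pseudogene, at chr14:105919580 on the plus strand. It had 30.5% and 32.9% of A in the untreated libraries and 13.0% and 11.7% with dTAG13, from 31472, 29043, 18569 and 31162 reads, the deepest of all tested Gm sites. The dTAG13 values did not overlap the untreated ones. The means were 31.7% ± 1.72 and 12.4% ± 0.916, a change of -19.3 points (SD, n = 2 each; quasi-binomial model, adjusted p = 0.0070). A further position of this gene, chr14:105919452, was listed only in the dTAG13 libraries, at 11.8% and 13.4%, close to the listing limit. Gene coverage was very high throughout, at 23760 and 23404 untreated and 14614 and 23168 with dTAG13.

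The second lay in Gm266, annotated as protein coding, at chr12:111451469 on the minus strand. It had 96.6% and 97.8% untreated from 89 and 137 reads, and 65.0% and 41.0% with dTAG13 from 20 and 366 reads. The groups did not overlap, and the means were 97.2% ± 0.835 and 53.0% ± 17.0, a change of -44.2 points (SD, n = 2 each; quasi-binomial model, adjusted p = 0.0232). Of the 5 other member sites of Gm266, those at chr12:111451165 and chr12:111451267 were listed in the untreated pair only, at 28.4% and 39.1%, and at 100% and 52.7%. Those at chr12:111451218 and chr12:111451240 were higher in the second dTAG13 library than in the second untreated one, at 43.3% against 34.1% and at 50.6% against 34.1%, so the sites of this gene differed in direction. The fifth, at chr12:111451364, was at 100% in the second untreated and the first dTAG13 library.

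The calls, though not the direction, depended on the full set of 4 libraries. Leaving out each library in turn moved the adjusted p of the quasi-binomial model for Gm10076 to between 0.0578 and 0.139 and for Gm266 to between 0.0935 and 0.446. Neither site then passed, whichever library was left out. The change was between -20.5 and -18.1 points for Gm10076 and between -56.2 and -32.2 points for Gm266. Such a fit has 1 library in an arm, which is assumed to vary like the other group, and fewer libraries to estimate the spread. With the replicate number as a block the adjusted p were 0.117 and 0.184.

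**Figure D3:**
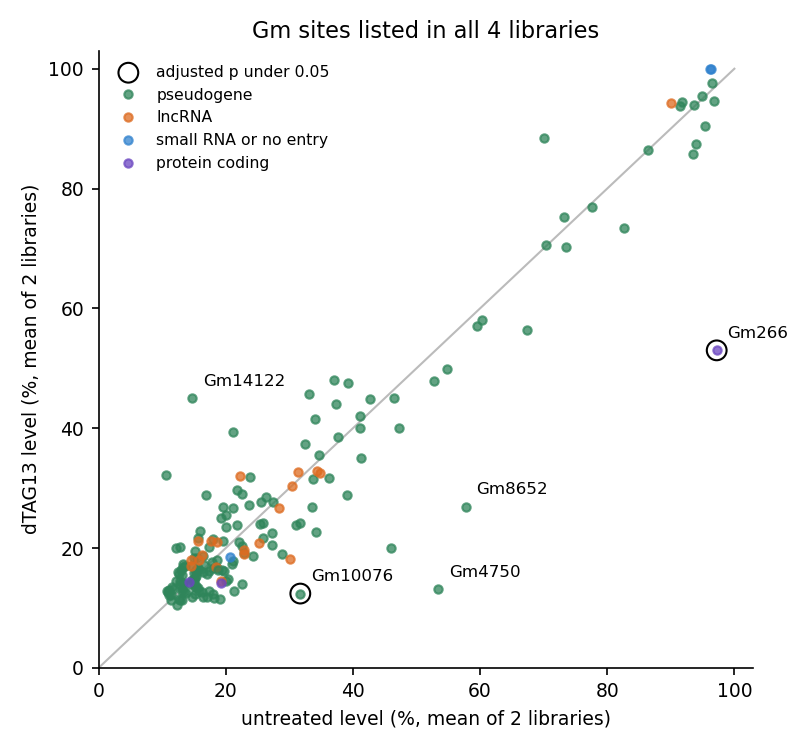
Mean level of the 179 tested Gm sites, untreated (horizontal) against dTAG13 (vertical), both in percent, coloured by gene type; the grey line marks equal levels. Most points lie near the line, and the circled sites in Gm266 and Gm10076 are the 2 with an adjusted p under 0.05.

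The other large differences did not pass the test. At the transcribed pseudogene Gm4750 (chrX:151216904, plus) levels were 63.5% and 43.4% untreated against 10.8% and 15.4% with dTAG13, without overlap (quasi-binomial model, adjusted p = 0.187). At the pseudogene Gm14122 (chr2:150240935, minus) they were 18.1% and 11.4% against 50.3% and 39.7%, the largest difference upward (adjusted p = 0.103, same model). The pseudogenes Gm8652 and Gm14270 showed how far replicates could differ: the untreated levels were 81.0% and 34.5%, and 71.6% and 20.4%, against dTAG13 levels of 25.7% and 28.0%, and 21.4% and 18.7%. Gm9315, Gm13679, Gm7363 and Gm5070, all pseudogenes, had both dTAG13 libraries above both untreated ones, with group means 12.6 to 21.7 points apart and adjusted p of 0.354 to 0.691 (quasi-binomial model). The site of Gm20716 and that of the pseudogene Gm5987 overlapped between the groups.

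**Figure D4:**
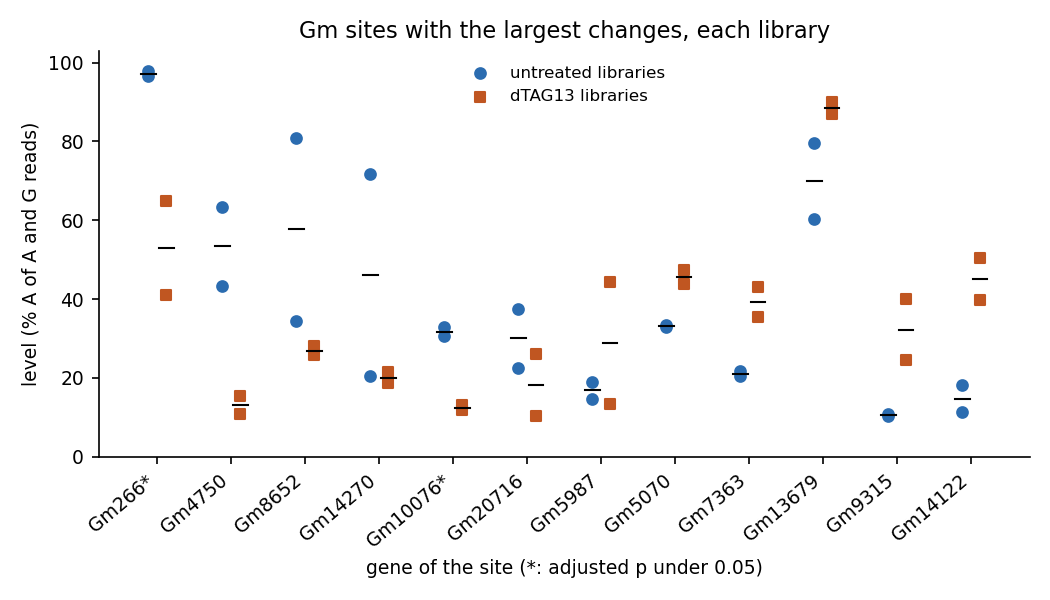
Level in each library (percent of A among A and G reads) at the 2 Gm sites past the threshold, marked by an asterisk, and the 10 others with the largest change among tested sites; black bars are group means. The untreated points of Gm8652 and Gm14270 lie far apart, and 6 of the 12 sites have a higher mean with dTAG13.

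Across the 179 sites, levels were close between the conditions. The median change was -0.063 percentage points, 163 sites (91.1%) had means within 10 points of each other and 127 within 5 points. Library medians were 19.8% and 20.2% untreated against 20.1% and 18.9% with dTAG13, which overlap (exact permutation p = 0.667, two-sided). The median gap between the replicates themselves was 3.12 points untreated and 3.99 points with dTAG13, and the median absolute change between the group means was 2.84 points. At 35 sites (19.6%) the 2 dTAG13 values were the lower ones without overlap, where the share over all tested sites was 19.4%. At 29 (16.2%) they were the higher ones, where it was 17.8%. Both shares were near those of all sites.

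Among tested sites, the medians of Gm and other named genes were furthest apart at high untreated levels. At an untreated mean of 90% or more, the 13 Gm sites had library medians of 95.3% and 93.8% untreated and 93.3% and 94.5% with dTAG13, which overlap. Of these 13, 9 lay in pseudogenes, 2 in snRNA genes, 1 in a lncRNA gene and 1 in the protein-coding gene Gm266. The 62 sites in other named genes had 99.1% and 98.8% against 38.4% and 40.0%. The Gm median minus the other median was therefore -3.81 and -5.04 points in the untreated libraries and 54.9 and 54.5 points with dTAG13, without overlap (exact permutation p = 0.333, two-sided, the smallest possible). Because a band is chosen on untreated levels, it keeps the untreated gap small in advance. The permutation p of a band is therefore no independent support for a class difference. At 40 to 90% the 21 Gm sites, all in pseudogenes, had medians of 63.5% and 53.5% against 50.0% and 46.8%, and the 86 others 64.7% and 58.3% against 22.4% and 26.4%. The difference between Gm and other named genes there was -1.26 and -4.80 points untreated and 27.6 and 20.4 points with dTAG13 (exact permutation p = 0.333, two-sided). Below 40% the classes differed by 1.94 and 0.501 points untreated and by 1.10 and 0.582 points with dTAG13, which overlap (exact permutation p = 1, two-sided). Named pseudogenes had few tested sites. The 2 at 90% or more had library medians of 93.0% and 92.2% untreated against 88.7% and 89.9% with dTAG13. The 6 at 40 to 90% had 59.7% and 49.2% against 45.1% and 50.6%, which overlap. At 90% or more, sites outside genes did not show the gap: the 102 there had medians of 96.4% and 96.8% against 96.3% and 96.1%. The Gm median minus theirs was -1.12 and -3.09 points untreated and -2.94 and -1.58 points with dTAG13, which overlap (exact permutation p = 1, two-sided). At 40 to 90% the Gm median minus that of the 226 sites outside genes was 8.43 and -1.07 points untreated. With dTAG13 it was -3.95 and -7.55 points, lower without overlap (exact permutation p = 0.333, two-sided). The bands were set from the untreated levels for all classes alike.

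Site by site, the dTAG13 values were lower without overlap at 4 of the 13 Gm sites of 90% or more (42.0% of all tested sites of that level), at 5 of 21 at 40 to 90% (31.8% of all) and at 26 of 145 below 40% (14.8% of all). At 8 Gm sites the level was 90% or more in all 4 libraries: those of the snRNA genes Gm22973 and Gm25360 and of the pseudogenes Gm10313, Gm6266, Gm5430, Gm9619, Gm4335 and Gm11829. Gm10313 (chr8:46708329, minus) was the deepest of these pseudogene sites, with 96.0% and 91.2% untreated from 429 and 590 reads and 93.8% and 94.0% with dTAG13 from 256 and 332 reads.

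When reads were summed over the tested sites of a gene, 166 Gm genes were tested among 1014 genes, and 156 of the 166 had a single tested site. The quasi-binomial model called 2 Gm genes, Gm10076 and Gm266, both lower, where 4.54% of all genes were called, all of them lower. At an unadjusted p under 0.05 there were 6 Gm genes, where the share over all genes was 13.9%. The pseudogenes Gm12943 and Gm2805, with 1 tested site each, had lower values in both dTAG13 libraries, with 19.6% and 20.6% against 15.8% and 13.1%, and 33.4% and 29.9% against 23.2% and 25.0%, with adjusted p of 0.252 and 0.256 (quasi-binomial model).

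The Gm genes with the most sites were Gm20716 (lncRNA, 30 sites) and the pseudogenes Gm2223 (27), Gm3365 (19), Gm1826 (18), Gm13651, Gm15784 and Gm5487 (17 each), and Gm12226, Gm2058 and Gm5499 (16 each). In 9 of these 10 more sites were shared by the untreated pair than by the dTAG13 pair. Gm20716 had 7 against 4, Gm2223 8 against 3 and Gm2058 6 against 0, whereas Gm13651 had 4 against 5. The median level of the listed member sites of Gm20716 was 31.4% and 38.5% untreated (18 and 17 sites) and 19.8% and 21.5% with dTAG13 (12 and 17 sites). That of Gm3365 was 37.1% and 38.5% (12 and 13 sites) against 19.0% and 19.1% (10 and 8 sites). Gm5499 went the other way, with 14.3% and 17.7% (8 and 12 sites) against 28.4% and 27.4% (6 and 8 sites). These medians rest on partly different sites in each library and carry no test.

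Gene coverage is a per-gene value in the tables, and in Gm pseudogenes its median change was below that of all genes. On log2 values centred on each library's median, limma tested 12521 genes with a value in all 4 libraries. It called 0 genes at an adjusted p under 0.05 (smallest adjusted p 0.363), and 0% of all genes were called. Without adjustment 1594 genes, 12.7% of all, had a p under 0.05, and 8.33% of all were on the lower side. Of 1555 Gm genes, with or without a site listed in at least 2 libraries, 242 did so, 186 of them lower and 56 higher. The median log2 change was -0.18 in these Gm genes and -0.07 over all genes. Over the 1207 Gm genes that did hold a site listed in at least 2 libraries it was -0.22. By type it was -0.22 in 1344 Gm pseudogenes, of which 69.4% were lower against 56.7% of all genes, 0.01 in 115 Gm lncRNA genes and 0.08 in 77 Gm protein-coding genes. Named pseudogenes had -0.23, and 72.8% of them were lower.

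The 5 Gm genes with the smallest p were the lncRNA gene Gm11944 and the pseudogenes Gm13234, Gm17938, Gm4476 and Gm8938. Gm11944, Gm13234 and Gm4476 held no site listed in at least 2 libraries, so they are not among the genes of the sites described here. Gm11944 had a coverage of 85.2 and 85.6 untreated and 20.2 and 28.8 with dTAG13, a log2 change of -1.74 ± 0.197 (SE). Gm13234 had 457 and 484 against 142 and 165, a log2 change of -1.54 ± 0.205 (SE). In both, the dTAG13 libraries lay well below the untreated ones. All 5 had log2 changes between -1.75 and -1.30, with an adjusted p of 0.363 in limma. Without centring, which moved the median of all genes to a log2 change of -0.15, limma called 15 genes, 0.12% of all, and 4 of them were Gm genes, all lower: Gm11944, Gm8938, Gm10232 and Gm13234.

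The sites also shared a feature that their selection did not use. Of the 4201 sites 2981 lay on the plus strand, 71.0% (95% Wilson interval 69.6 to 72.3, counting error only). The share was 73.1% in Gm pseudogenes and 72.9% in named pseudogenes, against 49.0% in Gm lncRNA genes, 52.7% in other named genes and 64.9% outside genes. In Gm protein-coding genes it was 62.2% of 135 sites (95% Wilson interval 53.8 to 70.0). Of the Gm genes listed in any library 56.6% lay on the plus strand, and these had 11.6 listed sites a gene against 7.30 on the minus strand. Over all listed Gm sites the share was 67.8% and 67.4% untreated and 68.2% and 68.1% with dTAG13, so the conditions differed by less than 1 point. The dTAG13 pair shared 0.651 times as many sites as the untreated pair on the plus strand and 0.620 times on the minus strand.

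**Figure D5:**
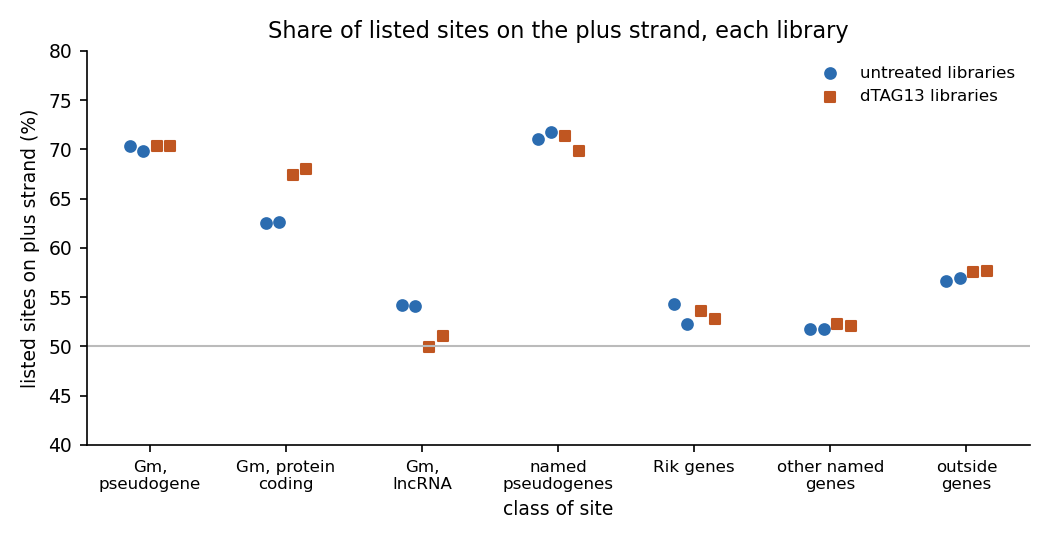
Percentage of listed sites on the plus strand in each of the 4 libraries, by class of site; the grey line marks 50%. Gm and named pseudogenes lie near 70% in every library, while Gm lncRNA genes and other named genes lie close to the line. Gm protein-coding genes lie between 62.5% and 68.0%.

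Some sites were close neighbours. Of the Gm sites 10.2% had another within 5 positions and 1.69% at the next position, against 8.73% and 1.31% in other named genes. Named pseudogenes had 10.6% and 2.01%, and sites outside genes 9.57% and 1.69%, so the Gm shares were near those of these classes.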

How the data were processed

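Polyadenylated RNA of 4 libraries was profiled by GLORI. The authors deposited 1 table of called sites per library, with counts of A and of A plus G reads that are not normalised. The level is the fraction of A in these deposited counts. The deposited coverage signal and the conversion fraction are 1 value per gene, not scaled to depth. The deposited adjusted p-value of the authors is at most 0.00401. Aligner, caller and treatment of duplicate reads are not given in the sources used here, so intervals cover counting error only. The submitters' processing notes name mm10, yet 2 contigs carry names of GRCm39 style and only 4.34% of Gm sites of the first untreated library lay inside the GRCm38 interval of their gene. The build is therefore unsettled, positions are printed unchanged from the tables, and sequence, motif, exon and UTR were not assigned.

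Groups came from the sample titles. Sites with at least 20 reads in all 4 libraries were fitted with a quasi-binomial model of A and G reads with a moderated dispersion (limma 3.58.1, R 4.3.3), and gene coverage with limma on log2 values centred per library, over whole tables with Benjamini-Hochberg adjustment. edgeR 4.0.16, limma on log2 odds and Fisher's exact test were alternatives. Single values used exact permutation over libraries. The site model was tried on simulated reads with planted decreases only and the same spread between libraries at every site. Upward changes and sites with a wider spread were not covered. Gene types came from a RefSeq table. Named sites were those past the threshold, the 10 largest other changes, the 10 highest levels per condition (at least 50 reads, 1 per gene), the 10 genes with most sites, the 5 with the smallest coverage p, and Gm10076. Gm12943, Gm2805, Gm10232 and the genes of other closing values were chosen after their values were seen. Members and lists were chosen with earlier results of these data known.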

Additional observations from a re-analysis of the deposited data

How the results depend on the processing

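The direction of the listed, shared and recovered counts held under every alternative run. The ratio of listed Gm sites was 0.740 to 0.870 with a library left out. At levels of 50% or more the recovery ratio was 0.414 and the pair ratio 0.386. The count of changed Gm sites was 2, and 2 with edgeR. It was 1 with at least 50 reads, which drops Gm266, and 32 by Fisher's exact test on summed reads, which ignores the spread between libraries. It was 0 in limma on log2 odds (12 at an unadjusted p under 0.05) and 0 to 0 without each library in turn (10 to 14 unadjusted). Changed Gm genes numbered 1 in limma, 0 among genes with at least 2 sites (0 unadjusted) and 0 to 0 without each library in turn (7 to 11 unadjusted). Gm genes changed in coverage numbered 4 without centring. The median change in level had no stable sign: it was 0.043 points with at least 50 reads, 1.36 over 2840 sites listed in at least 1 library of each group, and -0.979 to 0.321 without each library in turn. Replicates share a number across groups. Their deviations correlated at 0.0385 over 2321 sites and 0.00227 over 12521 genes, from only 2 pairs, so the numbers were not taken as pairing. With the replicate block 0 sites (15 unadjusted), 0 genes in summed level (11) and 0 in coverage (247) were called. The gene-type splits were added after seeing the data. With 2 libraries a group and 179 of 4201 sites testable, levels below 10% and most single sites could not be assessed.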

Other observations

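Small RNA genes with a Gm name held few sites but some of the highest levels. Besides Gm22973 and Gm25360, the snRNA gene Gm25813 had a site at chr8:52790111 at 100% in both dTAG13 libraries, from 21 and 42 reads. Neither untreated library listed it. The snRNA gene Gm25202 had a site at chrX:14181801 at 100% in the first untreated and the second dTAG13 library, from 16 and 34 reads. The snRNA gene Gm23971 had a site at chr11:101536727 at 96.6% from 1202 reads in the first untreated library and at 100% from 1021 reads in the second dTAG13 library. The snoRNA gene Gm23346 had a site at 36.8% in the first untreated and 98.5% in the second dTAG13 library.

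On the Y chromosome the lncRNA gene Gm33272 had 11 of the sites. A site at chrY:90805046 had 91.1% and 85.0% in the untreated libraries and was listed in neither dTAG13 library. The protein-coding gene Gm52481 had a site at chrY:90756167 with 57.9% and 61.3% untreated and 23.0% in the first dTAG13 library, and was not listed there in the second. Other sites of these genes went the other way. In the second untreated and the first dTAG13 library, chrY:90756267 of Gm52481 had 29.6% and 55.9%, and chrY:90807372 of Gm33272 had 10.2% and 61.3%. At chrY:90806577 of Gm33272 a site was listed only with dTAG13, at 35.0% and 42.9%.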
